A study of Mus musculus with 8 samples.

Results

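Organic osmolytes enter renal medullary cells through sodium-coupled carriers of the plasma membrane, and 4 genes for such carriers were examined: Slc5a3, Slc6a12, Slc6a6 and Slc38a2. They were taken by gene symbol from a table of raw counts for 15288 genes. The cells were a mouse inner medullary collecting duct line, labelled IMCD, and 8 bulk RNA-seq libraries were made from them. Cells of the control group (4 libraries, replicates 1 to 4) spent 12 h in DMEM without serum. Cells of the NaCl group (4 libraries, replicates 5 to 8) spent 12 h in the same medium with 100 mmol NaCl, an amount the labels give without a volume. No genotype, transgene or clone is named, and the labels do not say whether the libraries of a group came from separate cultures, so p-values measure the spread between libraries, which may be technical.

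A cell in hypertonic fluid loses water and shrinks, and then regains volume by taking up ions. Over hours it replaces these ions with organic osmolytes, small neutral solutes that can be held at high concentration without disturbing proteins. Medullary cells make sorbitol and glycerophosphocholine, and import myo-inositol, betaine and taurine. Slc5a3 encodes SMIT1, the sodium and myo-inositol cotransporter. Slc6a12 encodes BGT1, which carries betaine and GABA with sodium and chloride, and Slc6a6 encodes TauT, the taurine carrier of the same family. Slc38a2 encodes SNAT2, a carrier of small neutral amino acids (system A). The transcription factor NFAT5, also called TonEBP, is known to act on several of these genes through a DNA motif called the tonicity element.

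The sequences before the transcription starts are shown as a description beside the levels, and their part in the rises was not tested. The RefSeq (GRCm38.p6) windows used here ran from 250 bases before to 50 bases after a start. The set at hand held windows for 3 of the carriers, Slc5a3, Slc6a12 and Slc38a2. It held none for Slc6a6, whose promoter was therefore not searched. The stretches printed here run 5′ to 3′ on the gene's strand and stop before the RefSeq start and before any exon that GENCODE annotates there. Slc5a3 is shown at chr16:92058072-92058269 on the plus strand, Slc6a12 at chr6:121342324-121342573 on the plus strand for the outermost of its 5 starts, and Slc38a2 at chr15:96699731-96699978 on the minus strand. Capitals mark TGGAAA, the constant part of the tonicity element, searched on both strands.
Slc5a3: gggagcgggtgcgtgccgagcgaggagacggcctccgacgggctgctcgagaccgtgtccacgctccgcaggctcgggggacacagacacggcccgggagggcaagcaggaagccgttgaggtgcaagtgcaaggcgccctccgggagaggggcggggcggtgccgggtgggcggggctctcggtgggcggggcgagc
Slc6a12: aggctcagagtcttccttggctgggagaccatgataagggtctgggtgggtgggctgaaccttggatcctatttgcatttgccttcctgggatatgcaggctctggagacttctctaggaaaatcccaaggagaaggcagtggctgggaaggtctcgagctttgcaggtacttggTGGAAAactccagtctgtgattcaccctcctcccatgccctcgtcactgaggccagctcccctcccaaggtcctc
Slc38a2: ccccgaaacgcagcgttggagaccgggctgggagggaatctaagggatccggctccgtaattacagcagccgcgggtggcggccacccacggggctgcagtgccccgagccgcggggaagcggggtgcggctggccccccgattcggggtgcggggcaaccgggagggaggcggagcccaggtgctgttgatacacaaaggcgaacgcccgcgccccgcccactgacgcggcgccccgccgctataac
The Slc6a12 stretch held 1 match to TGGAAA, on the plus strand from 75 to 70 bases before the start, and the same bases began a match to the whole tonicity element. The windows at its other 4 starts, and the windows of Slc5a3 and Slc38a2, held neither. Among all 32851 RefSeq windows of 300 bases, 21.4% held TGGAAA and 4.96% held the whole element, of which TGGAAA is a part. Slc6a12 was searched in 5 windows, and Slc5a3 and Slc38a2 in 1 each. Counted by gene, over all windows of a gene, 23.9% of 27025 genes held TGGAAA and 5.74% the whole element. A match describes the letters in a window and was not tested for binding. The windows also differed in composition, at 73.3% G and C for Slc5a3, 73.0% for Slc38a2 and 55.7% for the outermost Slc6a12 window, against a median of 52.7% over all windows.

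Libraries held 35.29 to 47.57 M counts. Of the 15288 genes, 14024 passed a filter on low counts and were tested with edgeR's quasi-likelihood test, in which a gene was called at a Benjamini-Hochberg adjusted p-value under 0.05. The median log2 fold change (NaCl over control) over all tested genes was 0.00287. The labelled cell type was checked by its markers. Of 9 principal cell markers all were in the table, with Tfcp2l1 at 130 ± 13.6 and Hoxb7 at 71.4 ± 3.54 CPM in controls (SD, n = 4), while the water channel gene Aqp2 reached 15 counts at most. Of the 4 epithelial markers, Krt18 was at 217 ± 25.9, Krt8 at 109 ± 13.6 and Epcam at 27.3 ± 3.18 CPM in controls, and the cadherin gene Cdh1 reached 30 counts at most. The control libraries also held the fibroblast marker Col1a1 at 2492 ± 160 CPM, with the other fibroblast marker Pdgfra at 2.38 ± 0.54 CPM. The proximal tubule marker Lrp2 was at 185 ± 20.6 CPM and Cubn at 2.16 ± 0.23 CPM, and Slc34a1 was not in the table. The sum of Col1a1 and Pdgfra, nearly all of it Col1a1, spanned 2320 to 2654 CPM in control and 1953 to 2311 CPM in NaCl libraries, and the summed principal cell markers 240.5 to 284 and 213 to 244 CPM. Of the 9 principal cell markers, 4 had lower means with NaCl and 5 had higher ones. The lower ones were Tfcp2l1 (101 ± 3.21 CPM with NaCl), Hoxb7 (60.2 ± 3.904 CPM), Gata3 (8.10 ± 0.816 to 5.97 ± 0.353 CPM) and Aqp3 (0.32 ± 0.241 to 0.147 ± 0.0969 CPM). The higher ones were Elf3 (43.7 ± 5.74 to 50.3 ± 8.08 CPM), Slc14a2 (2.31 ± 0.571 to 5.06 ± 0.703 CPM), Scnn1a (2.12 ± 0.217 to 2.49 ± 0.313 CPM), Avpr2 (0.108 ± 0.122 to 0.646 ± 0.357 CPM) and Aqp2 (0.0241 ± 0.0342 to 0.305 ± 0.0786 CPM). The leukocyte marker Ptprc was at 4.05 ± 0.346 CPM in control and 13.5 ± 0.434 CPM in NaCl libraries (1 of 2 leukocyte markers in the table). The part of these markers in the results was not tested. The table held none of the 2 endothelial and 3 intercalated cell markers, and the summed thick ascending limb markers stayed at or below 3.43 CPM.

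Slc5a3 (ENSMUSG00000089774, GRCm38 chr16:92058322-92087473, plus strand) more than doubled. Its level was 219.9, 223, 233 and 239 CPM (counts scaled to a common library total) in control replicates 1 to 4 and 565, 493, 498 and 510 CPM in NaCl replicates 5 to 8. The groups did not overlap, and NaCl replicate 5 stood highest. The mean rose from 229 ± 8.78 to 517 ± 33.2 CPM (SD, n = 4 each), so the gain was 288 CPM (SE 17.2) and the change 1.18 on the log2 scale (SE 0.044), with an edgeR adjusted p of 7.79e-12. Among the 2447 genes with a control mean of at least 100 CPM, a level chosen after the data were seen, Slc5a3 had the fourth highest log2 fold change, behind 3 genes that include Akr1b3. In bulk libraries more expressing cells and more RNA per cell cannot be told apart. In the plot of levels by library its panel shows the widest separation of the 3 carriers that controls expressed.

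**Figure D1:**
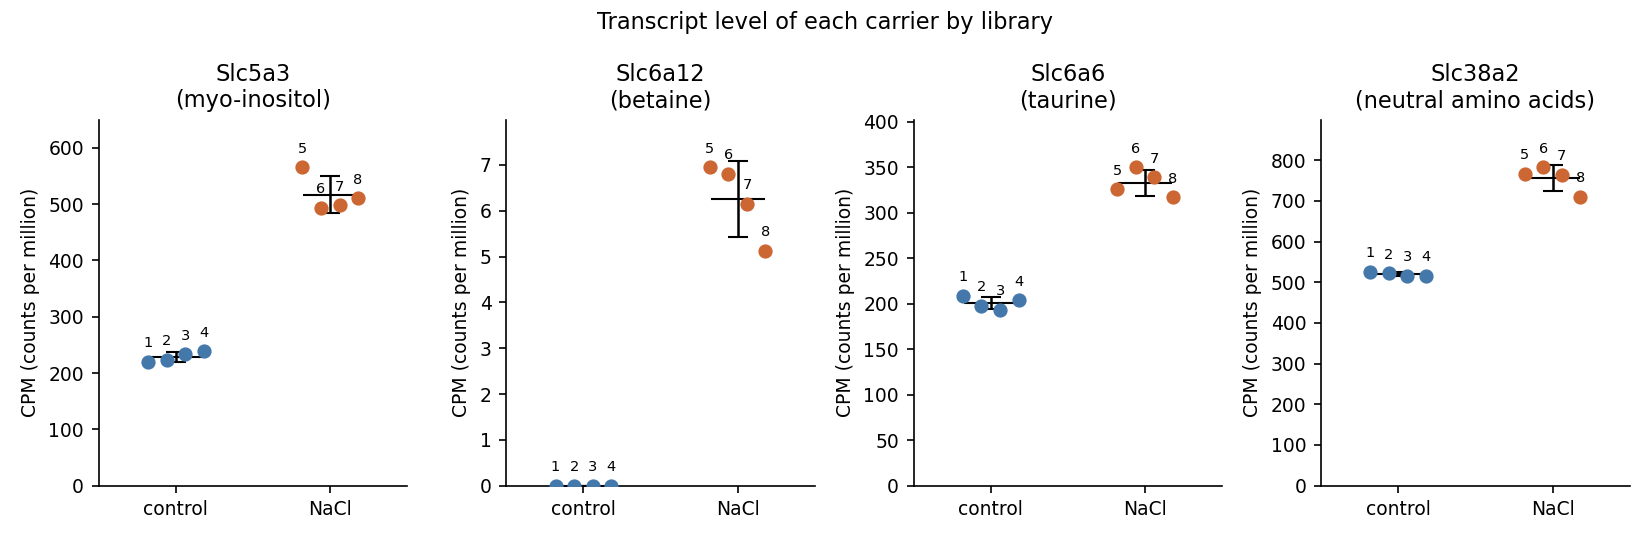
CPM of each carrier in each library (points, numbered by replicate), with the group mean and SD (n = 4 each); each panel has its own linear axis from 0. Control and NaCl libraries do not overlap in any panel, and the 4 control libraries of Slc6a12 lie at 0.

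A gene that starts almost at the same base as Slc5a3 rose with it. Mrps6 (ENSMUSG00000039680, GRCm38 chr16:92058270-92112227, plus strand) encodes a protein of the small subunit of the mitochondrial ribosome, and Slc5a3 lies wholly inside it. The annotated exons of the pair share 159 bases, which is 1.46% of the Slc5a3 exons and 10.4% of the Mrps6 exons. Their RefSeq starts are 14 bases apart, so that 286 of the 300 bases of their windows are the same and the sequence printed for Slc5a3 stands before both. Mrps6 was at 32.9, 33.8, 31.9 and 31.2 CPM in control replicates 1 to 4 and at 93.4, 78.4, 80.5 and 77.7 CPM in NaCl replicates 5 to 8. Again the groups lay apart and NaCl replicate 5 was highest. The mean rose from 32.5 ± 1.15 to 82.5 ± 7.37 CPM (SD, n = 4 each), which is 1.34 on the log2 scale (SE 0.058), with an edgeR adjusted p of 3.96e-11.

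The counts of the pair cannot be fully separated, because reads on shared bases could fall to either gene and the counting rule was not given in the sources used here. The other Slc5a3 exon bases lie inside Mrps6 but outside its exons. Reads of unspliced Mrps6 RNA there would also count as Slc5a3, and their share was not measured. At even coverage of its exons, Slc5a3 would hold 3.33 CPM on the shared bases in controls and gain 4.19 CPM there with NaCl, where Mrps6 gained 50.04 CPM (SE 3.73). Per kb of annotated exons, Slc5a3 was at 20.96 ± 0.805 and Mrps6 at 21.2 ± 0.753 CPM in controls. With NaCl they were at 47.3 ± 3.04 and 53.8 ± 4.81 CPM per kb (SD, n = 4 each). With the longest annotated transcript as length, Mrps6 was at 29.1 and 74.0 CPM per kb and Slc5a3 was unchanged. Without correction for length, Slc5a3 had 6.60 to 7.65 counts per Mrps6 count in control and 6.05 to 6.57 in NaCl libraries. These ranges did not overlap, and the log2 change of Slc5a3 was lower than that of Mrps6 by a difference of -0.17 (SE 0.057; exact two-sided permutation test p = 0.0286, the smallest that 4 against 4 libraries can give). A further gene inside Mrps6, the sense intronic transcript gene Gm16310 (ENSMUSG00000086331), rose from 1.53 ± 0.239 to 4.96 ± 0.711 CPM (edgeR adjusted p = 7.12e-07). Its reads cannot be told apart from those of unspliced Mrps6 RNA, since it lies on the same strand. The other mitochondrial ribosomal protein genes, a list added after the data were seen, mostly did not pass the test. Of 76 tested, 2 were called higher and 14 lower, their median log2 fold change was -0.05, and the range ran from -0.30 (Mrpl33) to 0.22 (Mrpl45), all below Mrps6. Over all tested genes 16.9% were called higher and 17.2% lower.

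**Figure D2:**
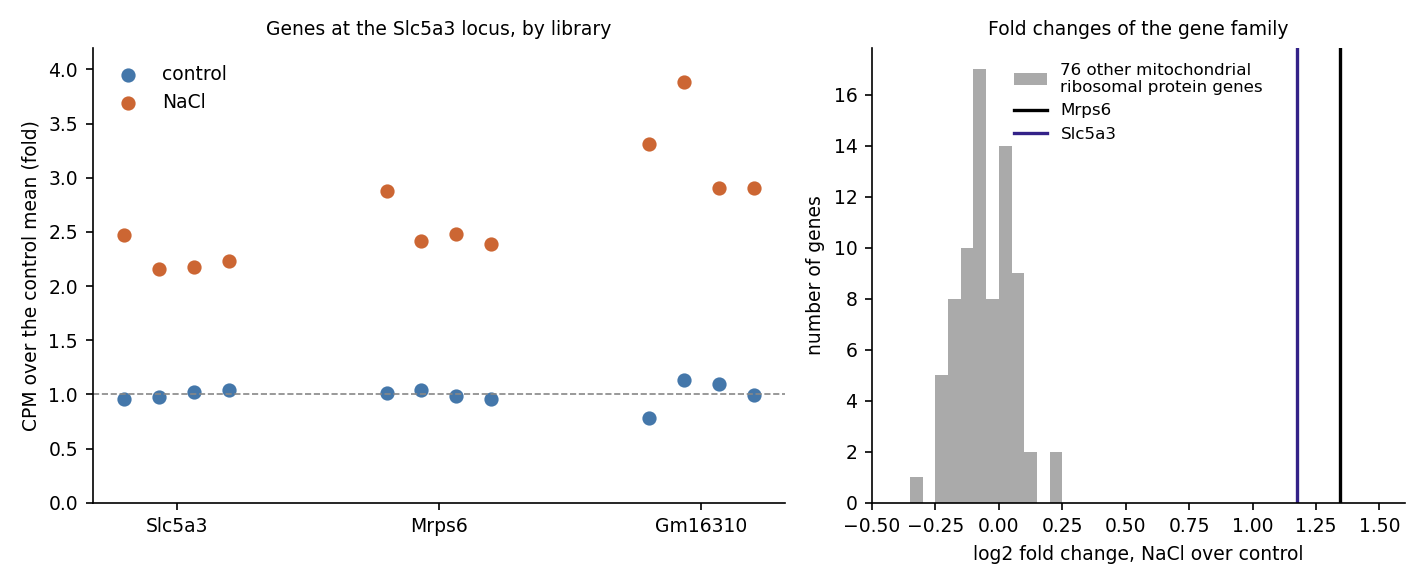
Left, CPM over the control mean (fold, linear axis) in each of the 8 libraries for Slc5a3, Mrps6 and Gm16310, with the dashed line at the control mean. Right, number of the 76 other mitochondrial ribosomal protein genes by log2 fold change, with lines for Mrps6 (1.34) and Slc5a3 (1.18), which lie to the right of every bar.

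Slc6a12 (ENSMUSG00000030109, GRCm38 chr6:121343076-121365775, plus strand) was the carrier without any control count. It had 0 counts in each of the 4 control libraries, and 249, 288, 254 and 215 counts in NaCl replicates 5 to 8. A count of 0 allows up to 3 counts per library, which is 0.0629 to 0.0725 CPM in the controls. With NaCl the level was 6.95, 6.81, 6.16 and 5.12 CPM, a mean of 6.26 ± 0.833 CPM (SD, n = 4). Against 3 counts in each control library the NaCl mean lay at least 90.2-fold higher, a bound that covers counting error only. Slc6a12 passed the filter on low counts through its NaCl libraries alone, so it had to differ and no test of it is given. Its annotated transcripts shared no stretch of sequence with another gene at 98% identity. The adjacent genes on chromosome 6, the family member Slc6a13 and Iqsec3, were not in the counts table and so were not analysed here.

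Slc6a6 (ENSMUSG00000030096, GRCm38 chr6:91684053-91759066, plus strand), the other member of the same family among the carriers, rose less steeply from a high control level. It was at 209, 198, 193 and 204 CPM in control replicates 1 to 4 and at 326, 350.1, 339 and 317 CPM in NaCl replicates 5 to 8. All NaCl libraries exceeded all controls, and NaCl replicate 6 was highest. The mean rose from 201 ± 6.68 to 333 ± 14.4 CPM (SD, n = 4 each), so the gain was 132 CPM (SE 7.94) and the change 0.73 on the log2 scale (SE 0.038), with an edgeR adjusted p of 3.04e-10. A short Slc6a6 transcript shares 16.9% of its length with the antisense gene Gm44981, which covers 1.38% of the Slc6a6 exons.

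Slc38a2 (ENSMUSG00000022462, GRCm38 chr15:96687392-96699730, minus strand) had the highest counts in controls and the lowest fold change. Its level was 525, 522, 515 and 516 CPM in control replicates 1 to 4 and 767, 782, 764 and 710.2 CPM in NaCl replicates 5 to 8. The controls lay within a narrow band and NaCl replicate 8 was the lowest of its group, still far above them. The mean rose from 519.7 ± 4.86 to 756 ± 31.5 CPM (SD, n = 4 each), so the gain was 236 CPM (SE 15.9) and the change 0.54 on the log2 scale (SE 0.034), with an edgeR adjusted p of 3.84e-09. The 3 carriers with counts in every library, Slc5a3, Slc6a6 and Slc38a2, were thus all called higher, where 16.9% of all tested genes were called higher and 34.1% in either direction. Control and NaCl libraries were apart for these 3 carriers, with NaCl higher, as they were for 16.5% of all tested genes (33.4% in either direction). Of these 3 carriers only Slc5a3 was called with a rise of at least 2-fold, as 2.04% of all tested genes were.

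The relative gains of the carriers were compared through the ratio of their counts within each library, which does not depend on how libraries are scaled. Slc6a12 had the highest fold change, followed by Slc5a3, Slc6a6 and Slc38a2. Slc5a3 exceeded Slc6a6 by 0.44 (SE 0.079) and Slc38a2 by 0.63 (SE 0.064) on the log2 scale, and Slc6a6 exceeded Slc38a2 by 0.19 (SE 0.027). Slc6a12, with controls set to 3 counts, exceeded Slc6a6 by at least 5.76 and Slc38a2 by at least 5.95, and the difference Slc5a3 minus Slc6a12 was -5.31 or lower. The 3 pairs with Slc6a12 are given as values without a test. For the other 3 pairs the ratios of control and NaCl libraries did not overlap, and each had p = 0.0286 in an exact two-sided permutation test, also after adjustment over these 3 pairs. Even the closest fold changes, those of Slc6a6 and Slc38a2, lay further apart than the libraries' spread.

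Absolute levels were compared per kb of annotated exons, since the lengths differ: 10.9 kb for Slc5a3, 3.05 kb for Slc6a12, 8.46 kb for Slc6a6 and 8.84 kb for Slc38a2. In controls Slc38a2 was highest at 58.8 ± 0.55 CPM per kb, followed by Slc6a6 at 23.7 ± 0.79 and Slc5a3 at 20.96 ± 0.805 CPM per kb (SD, n = 4). No neighbours in this order overlapped, although Slc6a6 (22.9 to 24.7) and Slc5a3 (20.1 to 21.9 CPM per kb) lay close. Slc6a12 was below 0.0238 CPM per kb, the level of 3 counts. With NaCl Slc38a2 led at 85.5 ± 3.56, followed by Slc5a3 at 47.3 ± 3.04 and Slc6a6 at 39.4 ± 1.70 CPM per kb, so that Slc5a3 and Slc6a6 changed places. Slc6a12 reached 2.05 ± 0.273 CPM per kb, the lowest of the 4 by a wide margin.

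The change of places depends on the length used. With the longest annotated transcript as the length, the NaCl level was 53.8 ± 2.33 CPM per kb for Slc6a6 and 47.3 ± 3.04 for Slc5a3 (SD, n = 4 each), and Slc6a6 stayed ahead, although the ranges overlapped (51.3 to 56.6 and 45.2 to 51.8). Which transcripts the cells use was not measured. The control order was the same with either length.

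In absolute terms Slc38a2 and Slc5a3 gained about as much per kb of exons. The gain was 26.7 CPM per kb (SE 1.80) for Slc38a2, 26.4 (SE 1.57) for Slc5a3, 15.6 (SE 0.94) for Slc6a6 and 2.05 (SE 0.14) for Slc6a12. The gains of Slc5a3 and Slc38a2 differed by -0.34 CPM per kb (SE 2.40; exact permutation test, p = 0.914 after adjustment over 3 pairs), which does not show that they were equal. Slc5a3 gained 10.7 CPM per kb more than Slc6a6 (SE 2.19), and Slc38a2 also gained more than Slc6a6 (Slc6a6 minus Slc38a2 -11.1, SE 1.21). Both differences had p = 0.0429 in the exact permutation test after adjustment over the 3 pairs without Slc6a12. Slc6a12 had the lowest gain, given without a test. With the longest transcript as length the difference between Slc5a3 and Slc6a6 shrank to 5.004 CPM per kb (adjusted p = 0.0857), while Slc5a3 gained less than Slc38a2 by a difference of -12.2 (adjusted p = 0.0429 over the 3 pairs; both exact permutation tests), and that between Slc6a6 and Slc38a2 widened to -17.2. The order of absolute gains thus differed from the order of fold changes: Slc6a12 was first by fold and last by gain per kb.

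The 4 carriers together rose from 103.5 ± 0.94 to 174 ± 5.76 CPM per kb (SD, n = 4 each), a ratio of 1.68. Within this sum the share of Slc5a3 was 19.3 to 20.97% in control and 25.5 to 28.9% in NaCl libraries. The share of Slc38a2 was 55.9 to 57.4% in control and 48.3 to 49.9% in NaCl libraries. That of Slc6a6 overlapped, at 22.3 to 23.7% and 21.5 to 23.3%, so Slc6a6 kept pace with the sum. Slc6a12 held 1.01 to 1.27% with NaCl. Slc6a12 thus remained a small part of the summed level at 12 h.

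**Figure D3:**
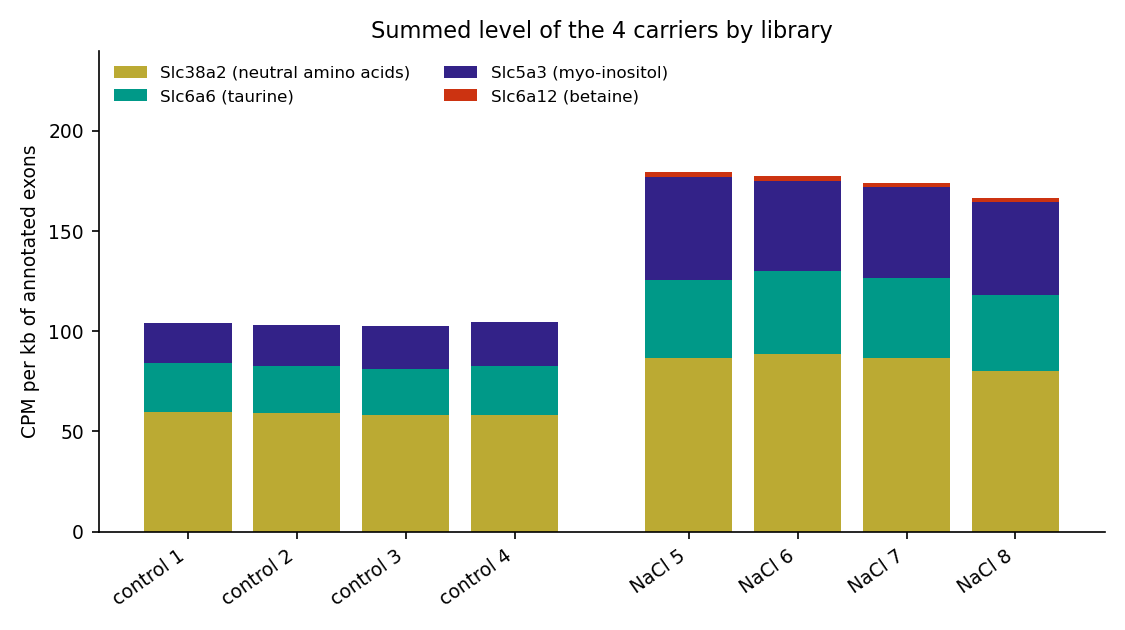
Level of each carrier in CPM per kb of annotated exons, stacked for each of the 8 libraries on a linear axis from 0. The sums lie between 102.5 and 104.4 in control and between 166 and 179 CPM per kb in NaCl libraries, and the parts of Slc38a2 and Slc5a3 gain about equally in height.

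No library of the NaCl group stood on the same side of the mean for all 4 carriers except replicate 8. Deviations from the group mean are given for each library, because 4 libraries per group are too few for a correlation. NaCl replicate 5 was high for Slc5a3 (9.41% above the mean) and Slc6a12 (10.996% above) but not for Slc6a6, which deviated by -2.15%, and Slc38a2 was 1.49% above. NaCl replicate 6 was high for Slc6a12 (8.82%), Slc6a6 (5.11%) and Slc38a2 (3.52%), and low for Slc5a3 (-4.52%). All 4 carriers were below their mean in NaCl replicate 8, by deviations of -18.2% for Slc6a12, -6.03% for Slc38a2, -4.73% for Slc6a6 and -1.27% for Slc5a3. Slc6a6 and Slc38a2 lay on the same side of their means in NaCl replicates 6, 7 and 8.

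Among controls Slc5a3 and Slc6a6 deviated oppositely in replicate 1 (-3.90% and 3.82%) and replicate 3 (1.94% and -3.75%), and to the same side in replicates 2 and 4. Slc5a3 and Mrps6 lay on opposite sides of their means in all 4 controls and on the same side in all 4 NaCl libraries. The coefficient of variation of Slc38a2 was 0.93% in controls, near the 0.67% that counting alone gives, and 4.16% with NaCl, where counting gives 0.57%. That of Slc5a3 was 3.84% and 6.42%, and that of Slc6a6 3.33% and 4.33%, each with a counting error of at most 1.07%. For Slc6a12 it was 13.3% with NaCl, where counting alone gives 6.31%. NaCl replicate 5 had the lowest total, 35.29 M counts, and whether depth bears on the deviations was not tested.

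**Figure D4:**
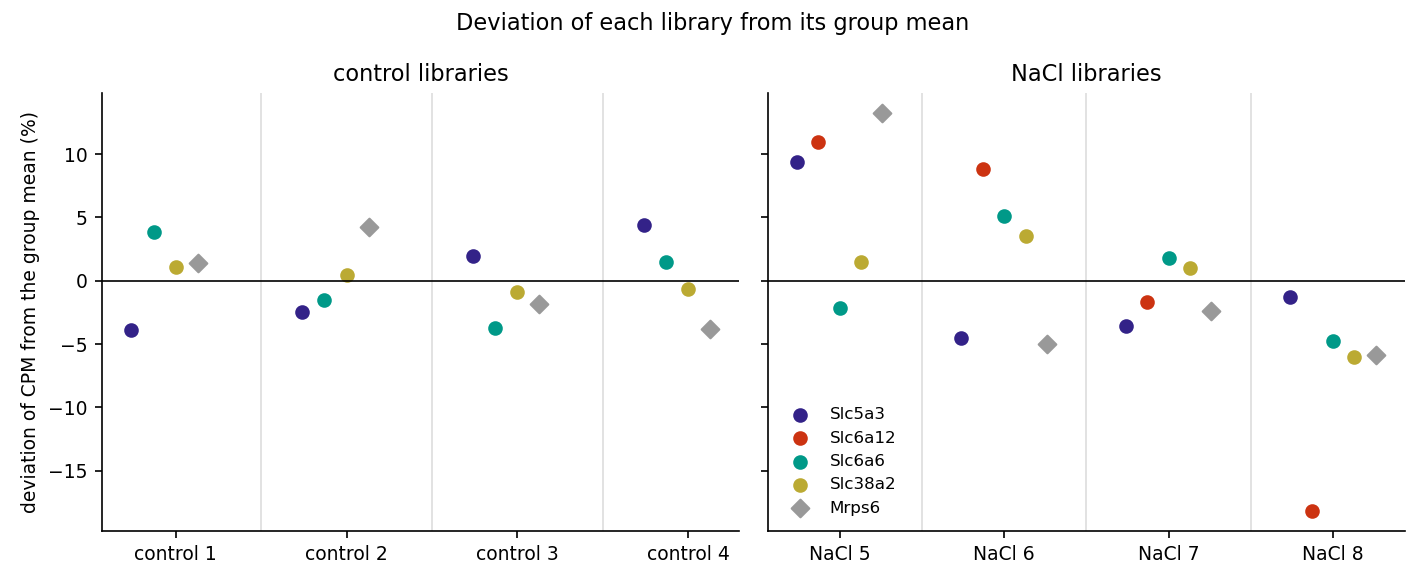
Deviation of CPM from the group mean (%) in each library for the 4 carriers (circles) and Mrps6 (diamonds), control libraries left and NaCl libraries right; Slc6a12 has no control value. NaCl 5 is high for Slc5a3, Slc6a12 and Mrps6, and all 5 genes are below the mean in NaCl 8.

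The genes with the most similar profiles were sought for each carrier, by the root mean square difference of log2 CPM centred on its mean over the 8 libraries. Nearest to Slc5a3 were Gdf15, a stress-induced cytokine of the TGF-beta family, at a difference of 0.039, Cryab, a small heat shock protein, at 0.055, and Tfdp2, a partner of E2F factors, at 0.063. Gdf15 rose from 63.9 ± 3.36 to 142 ± 7.78 CPM and Cryab from 111 ± 3.31 to 244 ± 16.7 CPM (SD, n = 4 each). Cryab shares 22.6% of a transcript with Hspb2, so its counts are less certain. Slc6a12 had 0 counts in all controls, so its control level here is set by the prior count of 2 added before the logarithm. Its distances therefore depend on that setting and do not measure likeness. The lowest was at 0.25, to Prss35, a serine protease-like protein, which rose from 0.756 ± 0.216 to 93.9 ± 13.1 CPM. Fxyd2, a regulatory subunit of the sodium pump, and Dpt, an extracellular matrix protein, followed at 1.17 and 1.27. These 2 genes had at most 2 and 5 counts in a control library, so the same limit holds for them.

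Nearest to Slc6a6 were Dap (0.052), Hif1a (0.052), which encodes the oxygen-regulated subunit of hypoxia-inducible factor, and Six5 (0.053), a homeobox gene. Hif1a, which shares 10.3% of a transcript with 2 other genes, rose from 265 ± 7.24 to 435 ± 17.9 CPM (SD, n = 4 each). Nearest to Slc38a2 were Mus81 (0.028), a DNA endonuclease gene that shares 8.36% of a transcript with 2 others, Lamb2 (0.036), a laminin chain gene, and Laptm4b (0.037), a gene for a lysosomal membrane protein. Lamb2 rose from 144 ± 4.26 to 208 ± 11.2 CPM. None of the nearest genes was another carrier. When likeness was measured by Pearson's r over the 8 libraries, which ignores the size of the change, none of the 3 nearest genes was kept for Slc5a3, Slc6a12 or Slc6a6, and 1 was kept for Slc38a2.

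Other carriers known for the same substrates moved in both directions. Of 8 listed, 6 were in the table and 4 were tested, of which 2 were called higher and 1 lower, where 16.9% of all tested genes were called higher and 17.2% lower. Slc6a20a, a carrier of proline and betaine, went from 12.3 ± 0.715 up to 24.2 ± 3.77 CPM (SD, n = 4 each), which is 0.98 on the log2 scale (SE 0.095), with an edgeR adjusted p of 9.54e-07. Its NaCl replicate 5 was at 29.9 CPM and the other NaCl libraries at 22.2 to 22.6 CPM, all above the controls at 11.4 to 13.2 CPM, and it shares 24.4% of a transcript with Slc6a20b and another gene. Slc36a1, a proton-coupled amino acid carrier, rose from 20.9 ± 0.641 to 23.7 ± 1.15 CPM (log2 fold change 0.18, edgeR adjusted p = 0.0291). Slc38a4, a system A carrier like Slc38a2, fell from 4.49 ± 0.556 to 1.23 ± 0.356 CPM (log2 fold change -1.86, edgeR adjusted p = 1.58e-06). Slc38a1, the remaining system A carrier, was at 41.8 ± 7.52 and 36.2 ± 3.91 CPM with overlapping groups (edgeR adjusted p = 0.267). Slc2a13, a proton-coupled myo-inositol carrier, and Slc6a20b never exceeded 8 and 9 counts and were not tested.

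The other genes of the carriers' families were counted in the same way, and differences between families were not tested. Of the 7 tested Slc38 genes other than Slc38a2, none was called higher and 1, Slc38a4, was called lower (median log2 fold change -0.10). Of the 5 tested Slc6 genes other than Slc6a12 and Slc6a6, 3 were called higher and 1 lower. Besides Slc6a20a these were Slc6a9, a glycine carrier (31.8 ± 2.49 to 52.3 ± 3.94 CPM, log2 fold change 0.72), Slc6a17 (32.0 ± 3.69 to 39.7 ± 3.84 CPM, 0.31) and the creatine carrier gene Slc6a8, which fell from 72.8 ± 4.19 to 59.1 ± 1.73 CPM (-0.30; SD, n = 4 each). Slc6a9 shares 44.8% of a transcript with Ccdc24 and another gene, so its counts are uncertain. Of the Slc5 genes other than Slc5a3, 2 were tested, the iodide carrier gene Slc5a5 and the vitamin carrier gene Slc5a6, and neither was called (edgeR adjusted p = 0.415 and 0.784; both were named after their values were seen). For comparison, 16.9% of all tested genes were called higher and 17.2% lower.

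The genes that make, break down or release the same osmolytes were counted beside the carriers. Of 13 tested genes of synthesis and breakdown, 5 were called higher (16.9% of all tested genes were), 1 lower (17.2%) and 7 were not called, and the median of their log2 fold changes was 0.04. Isyna1, which makes the precursor of myo-inositol, reached 264 ± 17.7 CPM from 99.1 ± 3.99 CPM (SD, n = 4 each; log2 fold change 1.41). Impa1 and Impa2, which release free myo-inositol from that precursor and were named after their values were seen, were not called (log2 fold changes -0.08 and -0.09, edgeR adjusted p = 0.217 and 0.18). Chdh, which oxidizes choline towards betaine, rose from 109 ± 11.02 to 205 ± 8.64 CPM (log2 fold change 0.90) and shares 10.35% of a transcript with Cacna1d. Akr1b3, the aldose reductase that forms sorbitol, shares 9.83% of a transcript with 4 other genes. It had the highest gain in CPM of all tested genes, 2364 CPM (SE 123.5), where Slc5a3 ranked 15, Slc38a2 17 and Slc6a6 47. Gdpd5, which breaks down glycerophosphocholine, fell from 11.5 ± 0.415 to 5.81 ± 0.96 CPM (log2 fold change -0.98). The remaining called genes, named after their values were seen, were Pnpla6 (0.82), which forms glycerophosphocholine, and Csad (0.25), a taurine synthesis enzyme.

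Of the 5 LRRC8 genes, which encode the volume-regulated anion channel through which taurine and other osmolytes leave swollen cells, 3 were called lower, where 17.2% of all tested genes were, and 2 were not called. Lrrc8c fell from 37.8 ± 1.72 to 26.3 ± 0.812 CPM (log2 fold change -0.52), Lrrc8b from 30.04 ± 1.199 to 21.6 ± 2.44 CPM (-0.48) and Lrrc8e from 15.6 ± 0.874 to 12.3 ± 0.806 CPM (-0.35; SD, n = 4 each). The obligatory subunit gene Lrrc8a was at 49.5 ± 3.73 and 50.7 ± 0.80 CPM (edgeR adjusted p = 0.647), and Lrrc8d had an edgeR adjusted p of 0.063; this pair was named after the values were seen. Nfat5 itself rose from 266 ± 13.2 to 323 ± 12.0 CPM (log2 fold change 0.28, edgeR adjusted p = 3.96e-05), a lower fold change than that of any of the 4 carriers, although its gain of 57.3 CPM exceeded the 6.26 CPM of Slc6a12.

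**Figure D5:**
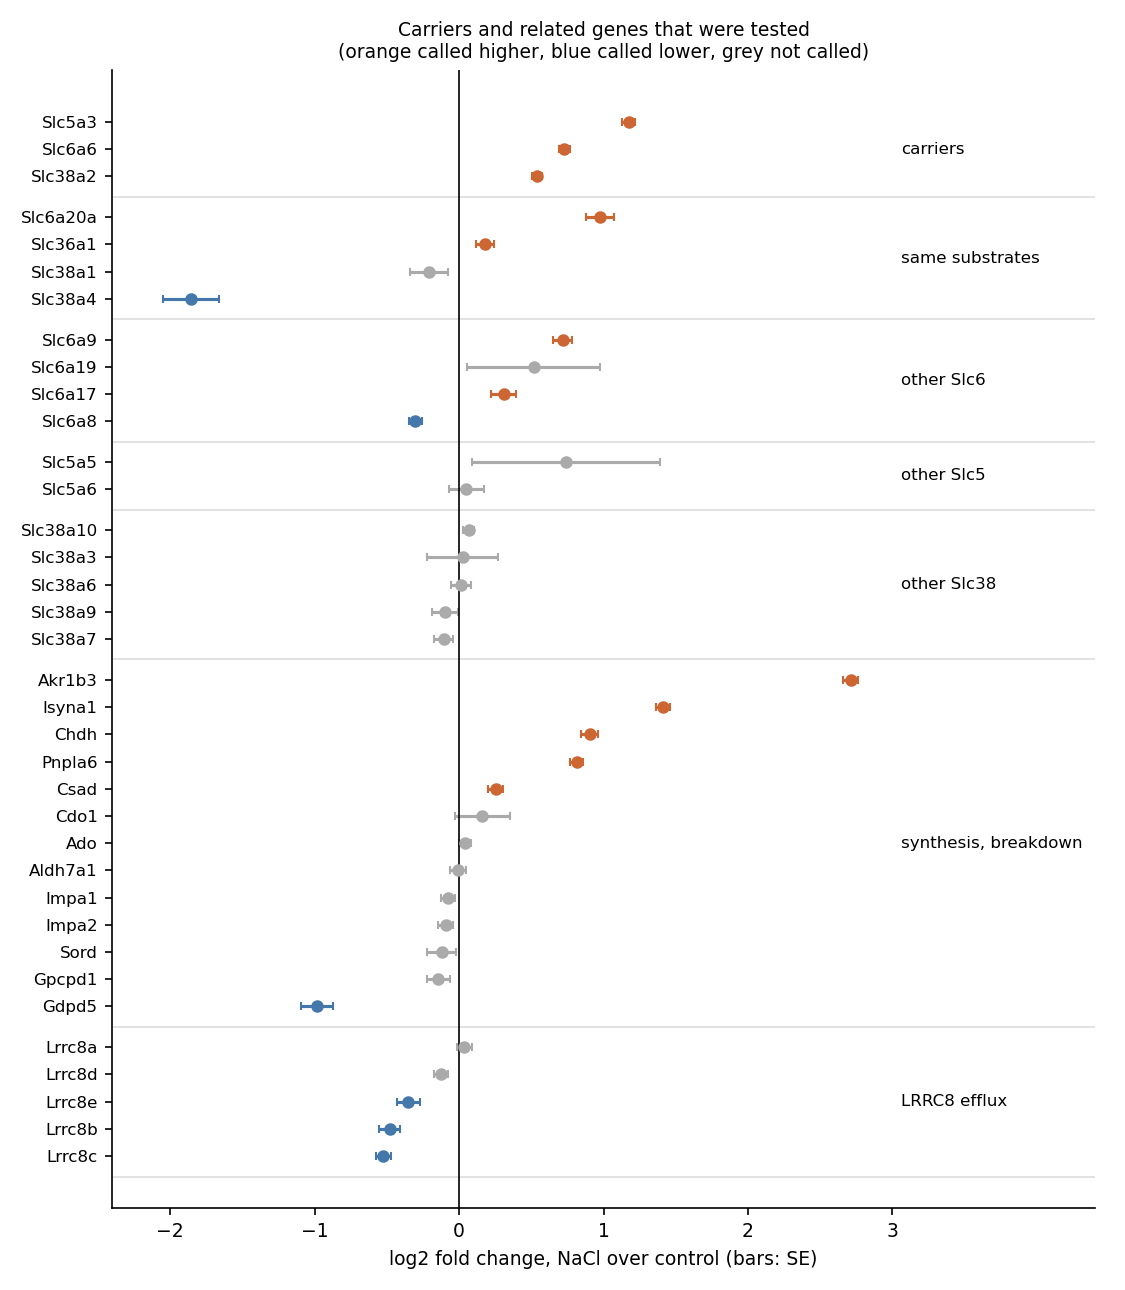
Log2 fold change (NaCl over control, points) with its SE (bars) for the carriers with control counts and the tested genes of the related lists, each gene shown once; Slc6a12 is left out because its controls had no counts. Orange points were called higher, blue points lower and grey points were not called at an edgeR adjusted p-value of 0.05.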

How the data were processed

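Raw counts per Ensembl gene were deposited by the authors, and a second table, also deposited by the authors, held a normalized signal equal to each count divided by 1 factor per library. Per the submitters' processing notes, Trim Galore 0.6.7, STAR, DESeq2 1.34.0 and mm10 were used; the counting program and strandedness were not given in the sources used here. mm10 is GRCm38, so GENCODE M21 coordinates and exon lengths and RefSeq promoter windows of that build were used.

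Counts were tested in R 4.3.3 with edgeR 4.0.16 (filterByExpr at a minimum count of 10, TMM, robust quasi-likelihood F test, group as the only term, Benjamini-Hochberg over 14024 genes). CPM used TMM-scaled totals. Groups with at most 3 counts in every library were set to 3 counts for lower bounds. Log ratios and per-kb differences between carriers were compared by exact two-sided permutation tests over libraries (scipy 1.17.1). Profiles used log2 CPM with a prior count of 2. Shared sequence was searched with blastn 2.17.0 (at least 75 bases at 98% identity). The test was checked on simulated counts.

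Alternatives were other scalings and filters, DESeq2 1.42.0, limma 3.58.1 (voom, and log2 of the authors' normalized signal plus 1), a threshold of 0.01, library number as a covariate, another gene length and leaving out each library. The carriers, lists and tests were chosen with earlier results of these data known. Named genes were the carriers, Nfat5, Akr1b3, the detected carriers of the same substrates, up to 4 called genes with the highest absolute fold change in each other list, the 3 genes nearest in profile, and adjacent or overlapping genes; overlapping and adjacent genes outside the counts table were not analysed here.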

Additional observations from a re-analysis of the deposited data

Results flagged for a closer look

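Single values far from the rest of their group were sought by Dixon's criterion. Of 78 sets of 4 libraries, 8 had one, and chance alone would give about 3.9. Total counts stood apart in control replicate 1 (47.6 M, the others 41.8 to 42.7 M) and NaCl replicate 5 (35.3 M, the others 41.4 to 42.4 M). NaCl replicate 5 also stood apart for Gdf15, the gene nearest in profile to Slc5a3, at 153 CPM where the others had 137 to 139 CPM. The same library stood apart for Slc6a20a, at 29.9 CPM where the others had 22.2 to 22.6 CPM. Cryab was at 116 CPM in control replicate 3 (the others 109 to 109.8 CPM), Dap at 193 CPM in control replicate 2 (206 to 209 CPM), and Lrrc8c at 40.3 CPM in control replicate 1 (36.7 to 37.3 CPM). Fxyd2 was at 0.0483 CPM in control replicate 3, from 2 counts, where the other controls had none. None of the 4 carriers had such a library in either group.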

How the results depend on the processing

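Slc5a3, Slc6a6 and Slc38a2 stayed higher and called in every fit, and Slc6a12, given without a test, left the table where 10 counts were required in every library. Leaving out each library gave log2 fold changes of 1.13 to 1.197 for Slc5a3, 0.70 to 0.75 for Slc6a6 and 0.52 to 0.57 for Slc38a2, and a lower bound of 6.44 to 6.58 for Slc6a12. The other alternatives gave 1.17 to 1.19, 0.73 to 0.79, 0.54 to 0.63 and 6.49 to 6.51; the highest values of Slc6a6 and Slc38a2 came with the library number as a linear drift. The number of called genes was 4789, 4071 to 4634 without a library, 3145 at a threshold of 0.01, and 3382 to 6030 otherwise. The differences of log2 change between carriers kept their direction whichever library was left out. Other scalings cannot alter these ratios, and another floor for low counts alters only the pairs with Slc6a12.

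The difference in gain per kb between Slc5a3 and Slc38a2 had no stable sign: it ran from -1.86 to 1.38 when a library was left out, with 0.105 without control replicate 4, 1.38 without NaCl replicate 6 and 0.523 without NaCl replicate 7. With the longest transcript as length it was -12.2, that of Slc5a3 and Slc6a6 was 5.004, Slc5a3 ranked 3 and Slc6a6 ranked 2 in the NaCl level, and the share of Slc6a12 rose by 1.04 percentage points in place of 1.17. The change in the share of Slc6a6 was -0.34 percentage points, 0.25 with that length and 0.0343 without NaCl replicate 5 (-0.59 to 0.0343 over the libraries left out). The alternatives on shares, on the NaCl order and on Slc5a3 against Mrps6 (log2 difference -0.20 to -0.13 without a library) were added after the data were seen, as was the adjustment over the 3 pairs without Slc6a12, which changed no call. Of the 3 nearest genes, Pearson's r kept 0 for Slc5a3, Slc6a12 and Slc6a6 and 1 for Slc38a2. Permutation tests without a library cannot reach 0.05 (smallest p = 0.0571), so those values carry no test. No paired analysis was possible because the library numbers 1 to 8 do not repeat between the groups.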
